A study of Mus musculus with 31 samples.

Results

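The 10 genes described here encode chaperones, folding enzymes and regulators of the endoplasmic reticulum (ER): Hspa5, Hsp90b1, Calr, Dnajb9, Sdf2l1, Pdia4, Pdia6, Creld2, Herpud1 and Xbp1. They were found by symbol among the 60172 gene IDs of 3 deposited tables of RNA sequencing counts. Each symbol had a single entry in each table, and all 10 genes passed the filter on low counts in each. The samples are Panc02 cells, a mouse pancreatic adenocarcinoma line. In the conditioned medium experiment, wild-type (WT) spheroids in Matrigel were grown in 3 media, with 3 samples each. These were control medium (Ctrl, DMEM with 6.5% FBS), medium from unstimulated bone marrow macrophages (M0-CM) and medium from macrophages given IFNγ and lipopolysaccharide (M1-CM). The macrophage media held L929 cell supernatant and were mixed with DMEM holding serum, and no L929 supernatant is named for Ctrl. In the culture experiment, WT and Cxcl5-/- cells were grown in 2D or in 3D, with 3 samples in each of the 4 groups. In the overexpression experiment all cells were grown in 3D: WT (n = 2), Cxcl5-/- (n = 2), Hif1aOE Cxcl5-/- carrying a stabilised mutant Hif1a (n = 3) and MycOE Cxcl5-/- (n = 3). The Cxcl5-/- cells were made with CRISPR/Cas9 and puromycin selection, and the overexpression cells carry a retroviral vector as well, which the WT cells lack. The labels do not say that replicates were separate cultures, so p-values measure the spread between samples, which may be technical. The study's general statement on biological replicates does not name the sequencing.

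Proteins that enter the secretory pathway fold in the ER, where Hsp70 and Hsp90 family chaperones, lectin chaperones and disulfide isomerases act on them. When unfolded chains accumulate, the sensors IRE1 (Ern1), ATF6 and PERK (Eif2ak3) start the unfolded protein response, which raises the genes of the folding machinery and lowers translation. IRE1 splices the mRNA of Xbp1 into the form that encodes an active transcription factor. ATF6 is cut in the Golgi to free its own transcription factor, and PERK acts through ATF4 and CHOP (Ddit3). The secreting cells of the normal pancreas are known for a heavy secretory load, and that of Panc02 cells was not measured here. Gene counts do not show Xbp1 splicing, ATF6 cleavage or protein levels.

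Xbp1, the transcription factor at the end of the IRE1 branch, lies at chr11:5520659-5525893 on the plus strand of GRCm38. Hspa5, at chr2:34771970-34777547 on the plus strand, encodes BiP, the ER Hsp70 that binds unfolded chains and holds the sensors inactive. Hsp90b1, at chr10:86690209-86705509 on the minus strand, encodes GRP94, the Hsp90 of the ER. Calr, at chr8:84841850-84846934 on the minus strand, encodes calreticulin, a calcium-binding lectin chaperone of glycoproteins. Dnajb9, at chr12:44205559-44210326 on the minus strand, encodes ERdj4, a J-domain partner of BiP. Sdf2l1, at chr16:17130138-17132383 on the minus strand, encodes a lumenal cochaperone that works with another J-domain protein. The protein disulfide isomerases Pdia4 and Pdia6 lie at chr6:47796141-47813430 on the minus strand and chr12:17266545-17284770 on the plus strand. Creld2, at chr15:88819646-88826683 on the plus strand, encodes an ER protein induced by ER stress. Herpud1, at chr8:94386438-94395377 on the plus strand, encodes a membrane protein of the complex that sends misfolded proteins out for degradation. Positions are those of GENCODE M21. Hsp90b1, Dnajb9, Pdia4, Pdia6 and Herpud1 overlap other annotated genes, among them Atp6v1c2 on the strand opposite Pdia6, and Calr has an annotated pseudogene. The setting for strand in the counting is not given in the sources used here, so reads of these overlaps cannot be assigned with certainty.

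The ER stress response element (ERSE), CCAAT and CCACG with 9 bases of any kind between them, is a promoter motif known to bind ATF6 and XBP1 together with NF-Y. ERSE-II, ATTGG and CCACG with 1 base between them, is a related arrangement. Promoter sequences of RefSeq (GRCm38.p6, 250 bases before and 50 after the start site) were matched for all 10 genes and searched on both strands. An ERSE was found for 5 of the 10 genes, against 39 of 32851 promoters (0.119%). ERSE-II was found for Herpud1 alone, against 12 promoters (0.0365%). The XBP1 core motif TGACGTGG was found in none of the 10 and in 222 promoters (0.676%). The Xbp1, Dnajb9, Pdia4 and Sdf2l1 windows held none of the 3 motifs in these letters. A match of letters is a description and not a binding site. The background promoters include those of the 10 genes, and the motifs are known elements of this response. These shares are therefore not a test of enrichment. The sequences are the 250 bases before the start, 5′ to 3′ on the gene's strand, with the fixed bases of each match in capitals. Hspa5 (chr2:34771840-34772089) is shown as the gene with the largest change between genotypes in the overexpression experiment, Hsp90b1 (chr10:86705445-86705694) for its 2 matches in opposite orientations, Herpud1 (chr8:94386179-94386428) for ERSE-II, and Dnajb9 (chr12:44210069-44210318) as the gene with the largest change between 3D and 2D culture.
Hspa5: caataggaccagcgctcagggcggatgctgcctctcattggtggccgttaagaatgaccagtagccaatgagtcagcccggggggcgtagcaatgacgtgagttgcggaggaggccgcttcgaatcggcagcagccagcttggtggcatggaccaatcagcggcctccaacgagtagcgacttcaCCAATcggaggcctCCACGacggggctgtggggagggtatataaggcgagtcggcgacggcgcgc
Hsp90b1: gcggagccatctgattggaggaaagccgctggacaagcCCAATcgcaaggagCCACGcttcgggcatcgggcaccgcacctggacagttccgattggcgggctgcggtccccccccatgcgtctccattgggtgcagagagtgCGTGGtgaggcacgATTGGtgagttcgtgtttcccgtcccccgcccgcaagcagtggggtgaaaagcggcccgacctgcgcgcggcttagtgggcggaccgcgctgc
Herpud1: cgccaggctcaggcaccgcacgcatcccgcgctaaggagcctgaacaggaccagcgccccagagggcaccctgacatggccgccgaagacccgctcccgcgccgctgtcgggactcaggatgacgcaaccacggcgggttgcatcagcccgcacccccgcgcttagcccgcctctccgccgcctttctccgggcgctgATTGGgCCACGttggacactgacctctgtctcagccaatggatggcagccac
Dnajb9: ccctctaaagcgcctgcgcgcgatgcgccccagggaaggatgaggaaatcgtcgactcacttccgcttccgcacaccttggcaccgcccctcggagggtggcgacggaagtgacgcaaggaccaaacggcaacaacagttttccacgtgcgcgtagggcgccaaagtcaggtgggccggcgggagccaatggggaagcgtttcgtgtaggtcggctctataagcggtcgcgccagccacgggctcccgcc
The Hspa5 match began 65 bases before the start, at chr2:34772025-34772043. In Hsp90b1 the matches began 212 and 107 bases before the start. The Herpud1 match began 52 bases before the start, at chr8:94386377-94386387. Calr, Pdia6 and Creld2 held 1 ERSE each, given here to compare the spacer letters in lower case. Calr and Creld2 had it in reverse orientation, read here on the gene's strand, 162 bases (chr8:84847075-84847093) and 126 bases (chr15:88819520-88819538) before the start, and Pdia6 had it forward, 98 bases before the start (chr12:17266491-17266509).
Calr: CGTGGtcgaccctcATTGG
Creld2: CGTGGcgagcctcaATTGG
Pdia6: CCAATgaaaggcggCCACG

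Libraries held between 41542533 and 78498230 counts. Levels are in CPM, the count scaled to a fixed library size after edgeR's TMM normalization, which was run separately in each table, so levels are compared only within an experiment. Cxcl5 itself was lower in Cxcl5-/- than in WT samples of the overexpression experiment (36.6 and 40.2 against 64.2 and 67.7 CPM, adjusted p = 0.00107). In 3D culture it was higher in the libraries labelled Cxcl5-/- (65.5, 40.9 and 45.5 CPM) than in WT (28.5, 24.5 and 28.0 CPM, log2 fold change 0.91, adjusted p = 0.000173), which goes against the label, and the directions given for those libraries rest on the labels. Hif1a and Myc were both lower in those libraries than in 3D WT (140 to 175.5 against 336.1 to 407.3 CPM for Hif1a, adjusted p = 4.13e-07, and 9.12 to 11.37 against 33.89 to 36.9 CPM for Myc, adjusted p = 8.94e-08). In the overexpression experiment, where Cxcl5 followed the label, Hif1a was likewise lower in Cxcl5-/- (134 to 144 CPM) than in WT (304 to 324 CPM). An edited gene can still be transcribed, and counts do not show the edit. Myc was at 397 to 548 CPM in MycOE Cxcl5-/- against 20 to 22 in Cxcl5-/-, and Hif1a at 243 to 296 CPM in Hif1aOE Cxcl5-/- against 134 to 144. Hif1a was at 241 to 271 CPM in MycOE Cxcl5-/- as well. Its counts did not separate the 2 overexpression lines, and both lay below WT. Of the ductal epithelial markers, Krt8 was at 134.5 to 648.4 CPM, while Epcam and Cdh1 were at or near 0 in all groups. Macrophage markers summed to 1.9 to 25.7 CPM over 6 genes. In these bulk samples, fewer cells of a type and less RNA per cell cannot be told apart.

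The 10 genes differed widely in level. Per kilobase of exon, the mean level in 2D WT cells was highest for Hspa5 (441.8 CPM per kb) and Calr (417.5), followed by Hsp90b1 (236.1), and lowest for Dnajb9 (4.545). Dnajb9 was the lowest of the 10 in each of the 11 groups on this scale. Calr and Hspa5 held the top places in all groups except WT of the overexpression experiment, where Hsp90b1 (356.3 CPM per kb) and Calr (355.5) were level behind Hspa5 (710.2). In Cxcl5-/- samples of that experiment Calr (262.8 CPM per kb) stood above Hspa5 (199.8). Summed over the 10 genes, the level was 4908 to 5505 CPM in 2D WT, 3971 to 4365 in 2D Cxcl5-/-, 4473 to 5254 in 3D WT and 3320 to 3912 in libraries labelled 3D Cxcl5-/-. In the overexpression experiment the sum was 6636 to 6927 CPM in WT, 2998 to 3103 in Cxcl5-/-, 4123 to 4656 in Hif1aOE Cxcl5-/- and 4196 to 4511 in MycOE Cxcl5-/-. With TMM scaling no Cxcl5-/- sample of 3D culture reached the lowest WT sample in either experiment. In the culture experiment this separation rests on that scaling. The TMM factors there were 0.82 to 0.912 in 3D WT and 1.01 to 1.22 in libraries labelled 3D Cxcl5-/-.

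The first question was whether 3D culture changes ER folding genes in WT cells. Dnajb9, Herpud1 and Xbp1 were higher in 3D than in 2D WT cells, Creld2 and Calr were lower, and the other 5 genes passed in neither direction. These 3 higher and 2 lower of 10 stood beside 44.3% of all 21367 genes tested that passed, 22.2% higher and 22% lower. The groups did not overlap for 3 genes in each direction, beside 26.8% of all genes on the higher and 27.5% on the lower side. The median log2 fold change was -0.0563 over the 10 genes and 0.0020 over all genes.

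Dnajb9, the BiP cochaperone, was at 10.02, 12.67 and 12.07 CPM in 2D WT and at 37.74, 37.74 and 42.94 CPM in 3D WT. All 3D values lay far above the 2D values, a 3.4-fold difference (log2 fold change 1.77 ± 0.11 SE, adjusted p = 4.55e-08), the largest of the 10 genes. Herpud1, of the degradation complex, was at 121.7, 107.1 and 138.1 CPM in 2D WT and at 180.2, 161.3 and 177.9 in 3D WT. Its groups did not overlap, and the difference was 1.42-fold (log2 0.50 ± 0.12, adjusted p = 0.00278). Xbp1 mRNA was at 128.2, 119 and 125.3 CPM in 2D WT and at 176.3, 145.7 and 173 in 3D WT, again without overlap, and 1.33-fold higher (adjusted p = 0.0037). Creld2 went the other way, from 85.6, 75.09 and 94.12 CPM in 2D WT to 62.01, 66.01 and 58.88 in 3D WT, 1.36-fold lower (log2 -0.45 ± 0.09, adjusted p = 0.00111).

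Hspa5, Hsp90b1, Pdia4, Pdia6 and Sdf2l1 did not pass. Hspa5 was at 1837, 1801 and 1967 CPM in 2D WT and at 1783, 2103 and 1690 in 3D WT. The 3D values enclosed all of the 2D values (log2 -0.01 ± 0.10, adjusted p = 0.961). Hsp90b1 gave a log2 fold change of -0.05 (adjusted p = 0.737), Pdia4 -0.06 (0.621), Sdf2l1 -0.06 (0.75) and Pdia6 -0.28 (0.0615). Calr was lower in 3D WT (log2 -0.35 ± 0.12, adjusted p = 0.0242), but this call was lost when any of 4 samples was left out, 2D WT replicate 1 (adjusted p = 0.0765) or 3 (0.153) or 3D WT replicate 2 (0.102) or 3 (0.118). With library totals in place of TMM the median of all genes moved to -0.2116 and the Xbp1 call was lost (0.19, adjusted p = 0.0605). Pdia4, Pdia6 and Sdf2l1 then joined the genes called lower. Under each scaling 3 of the 10 genes stood above the median of all genes. A new scaling shifts all genes by nearly the same amount, so that count could hardly change and is no check of the calls. Gm10800, a predicted gene, took at most 0.000887% of the counts in 2D WT and 6.33 to 14.5% in 3D WT. Of 4 epithelial markers tested 3 were higher in 3D WT and 1 lower (sums of 538.3 to 588.4 CPM in 2D WT and 839.1 to 1084 in 3D WT), of 4 macrophage markers 3 were higher (1.899 to 2.658 and 7.347 to 8.852), and of 4 fibroblast markers 2 were higher and 1 lower (169.1 to 182.9 and 150.4 to 157.7). The part of these differences in the results for the 10 genes was not tested.

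**Figure D1:**
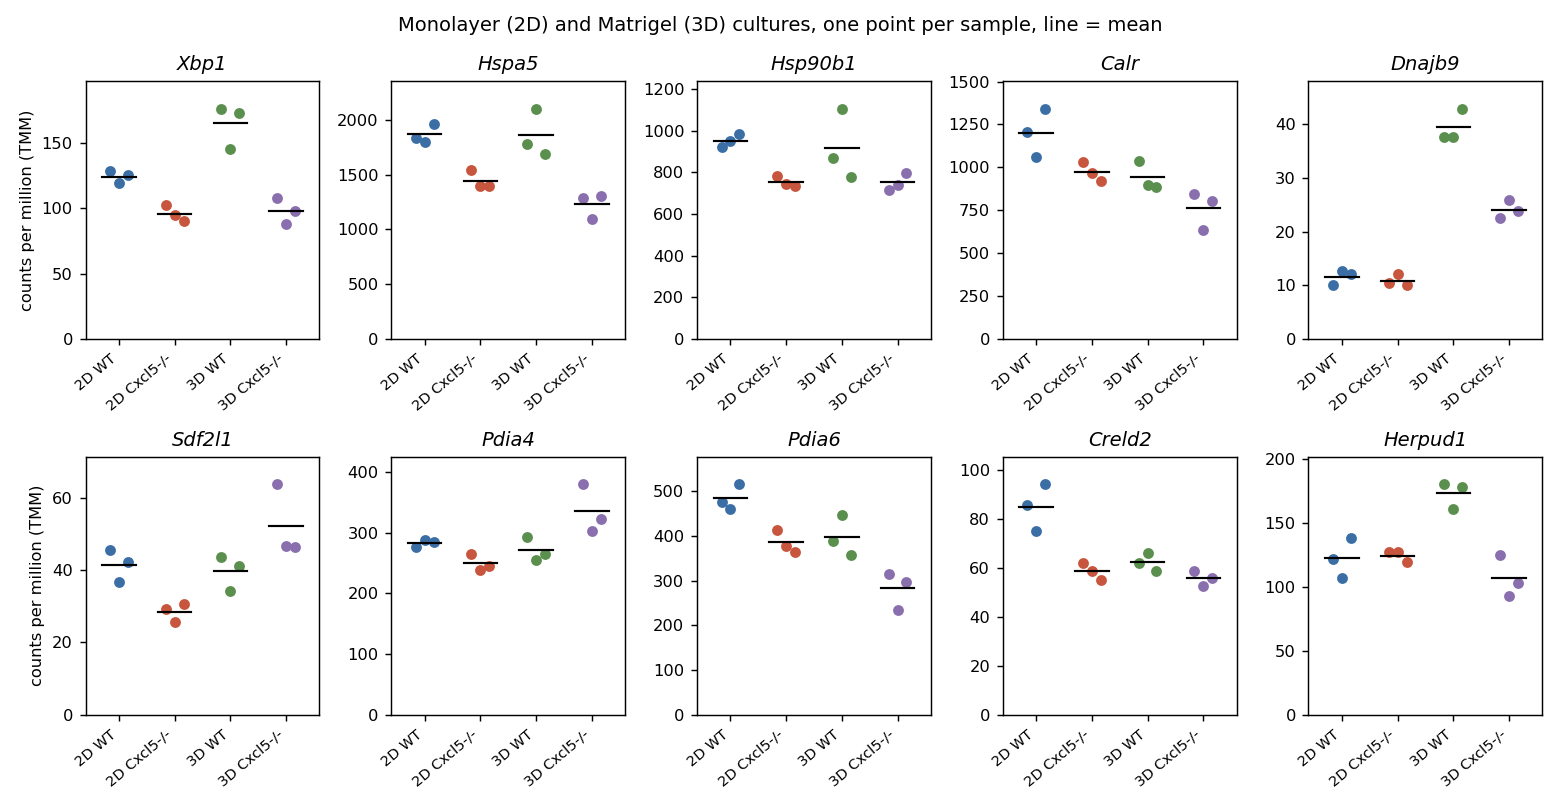
Level of each of the 10 genes in CPM (y axis, linear from 0, TMM scaled) in 2D WT, 2D Cxcl5-/-, 3D WT and libraries labelled 3D Cxcl5-/- (x axis), 1 point per sample (n = 3 per group) with a line at the mean. Dnajb9 stands at 37.74 to 42.94 CPM in 3D WT against 10.02 to 12.67 in 2D WT, and Sdf2l1 and Pdia4 are the panels in which the 3D Cxcl5-/- points lie above the 3D WT points.

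The next comparison asked what changes in 3D when Cxcl5 is edited. Set against 3D WT, the libraries labelled 3D Cxcl5-/- were lower in 7 of the 10 genes (Xbp1, Dnajb9, Herpud1, Hspa5, Pdia6, Calr and Hsp90b1) and higher in 2 (Sdf2l1 and Pdia4), and Creld2 passed in neither direction. Over all genes 45% passed, 25.3% lower and 19.7% higher. The groups did not overlap for 7 of the 10 genes on the lower and 2 on the higher side, beside 28.8% and 25.5% of all genes. The median log2 fold change was -0.4006 over the 10 genes and -0.0392 over all genes.

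Xbp1 was at 108.2, 88.32 and 97.72 CPM in libraries labelled 3D Cxcl5-/-, below every 3D WT sample (145.7 to 176.3 CPM), and 1.68-fold lower (log2 -0.75 ± 0.10, adjusted p = 3.63e-05). Dnajb9 was at 22.47, 25.99 and 23.77 CPM, 1.64-fold below 3D WT (log2 -0.71 ± 0.11, adjusted p = 0.000157) but still above all 2D samples. Herpud1 was at 124.6, 92.47 and 102.6 CPM, 1.62-fold below 3D WT (log2 -0.70 ± 0.12, adjusted p = 0.000247) and within or below the 2D range. These are the 3 genes that were higher in 3D than in 2D WT cells, and the comparisons share the 3D WT samples. Hspa5 was at 1283, 1097 and 1303 CPM, with no overlap with 3D WT (1690 to 2103), and 1.51-fold lower (log2 -0.60 ± 0.10, adjusted p = 0.000232). Pdia6 was at 314.8, 234.9 and 296.9 CPM against 387.8, 447.4 and 357.7 in 3D WT, 1.41-fold lower (log2 -0.49 ± 0.12, adjusted p = 0.00325). These 5 calls were kept when any sample was left out.

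The higher genes were Sdf2l1 and Pdia4. Sdf2l1 was at 63.76, 46.74 and 46.52 CPM in libraries labelled 3D Cxcl5-/- against 43.73, 34.33 and 41.19 in 3D WT. All values lay above WT, but the nearest samples were close (log2 0.40 ± 0.14, adjusted p = 0.0288). Pdia4 was at 379.8, 303.5 and 322.5 CPM against 292.3, 255.8 and 265.6, again without overlap (log2 0.31 ± 0.09, adjusted p = 0.0162). Each of the 2 calls was lost when 3D WT replicate 2 or 3 or Cxcl5-/- replicate 1 was left out (adjusted p from 0.0729 to 0.193). Calr (log2 -0.31 ± 0.12, adjusted p = 0.0465) and Hsp90b1 (log2 -0.29 ± 0.11, adjusted p = 0.0433, overlapping groups) were at the threshold, and each call was lost without any of 3 samples, for Calr 3D WT replicate 1 or Cxcl5-/- replicate 2 or 3, and for Hsp90b1 3D WT replicate 2 or Cxcl5-/- replicate 1 or 2.

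The scaling bears on this comparison. Gm10800 took 6.33 to 14.5% of the counts in 3D WT and 0.334 to 0.429% in libraries labelled 3D Cxcl5-/-, and its part in these results was not tested. With library totals the median of all genes was 0.3481 instead of -0.0392. Hsp90b1 (0.09, adjusted p = 0.614) and Calr (0.07, adjusted p = 0.593) then turned positive, Hspa5 (-0.22, adjusted p = 0.109), Dnajb9 (-0.32, adjusted p = 0.0634) and Pdia6 (-0.12, adjusted p = 0.395) were no longer called, Xbp1 (-0.37) and Herpud1 (-0.32) were still lower, and Sdf2l1 (0.77) and Pdia4 (0.69) still higher. Relative to the median of all genes, 2 of the 10 genes stood above and 8 below under each scaling. A new scaling shifts all genes by nearly the same amount, so that count could hardly change and is no check of the calls. Marker levels moved with the groups as well. Of the epithelial markers, 4 were tested, 3 were lower and 1 higher, with sums of 839 to 1084 CPM in 3D WT and 190 to 222 in libraries labelled 3D Cxcl5-/-. Of the 4 fibroblast markers, 2 were higher and 2 lower, with sums of 150.4 to 157.7 and 393 to 446.3 CPM. Their part in the ER gene results was not tested.

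The same genotypes were then compared in 2D culture. With Cxcl5 edited in 2D, Creld2, Sdf2l1, Hspa5 and Xbp1 were lower and no gene of the 10 was higher. Over all genes 7.03% passed, 3.17% lower and 3.86% higher. The median log2 fold change was -0.3315 over the 10 genes and -0.0150 over all genes, and 8 of the 10 had all Cxcl5-/- samples below all WT samples, a pattern that 13.1% of all genes showed. None of the 10 had the reverse pattern, beside 12.9% of all genes. Creld2 was at 62.07, 58.77 and 55.16 CPM in 2D Cxcl5-/- against 75.09 to 94.12 in 2D WT (log2 -0.53 ± 0.09, adjusted p = 0.002), and this call was kept when any sample was left out. Sdf2l1 was at 29.12, 25.71 and 30.75 CPM against 36.6 to 45.51 (log2 -0.54 ± 0.14, adjusted p = 0.0277). Hspa5 was at 1542, 1392 and 1400 CPM against 1801 to 1967 (log2 -0.37 ± 0.10, adjusted p = 0.0346), and Xbp1 at 102.8, 94.55 and 90.13 against 119 to 128.2 (log2 -0.37 ± 0.10, adjusted p = 0.0345). The Hspa5 and Xbp1 calls were lost when any of the 6 samples was left out, and the Sdf2l1 call was kept only without 2D WT replicate 2. Dnajb9 (-0.10, adjusted p = 0.748) and Herpud1 (0.03, adjusted p = 0.97) did not pass.

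The test of the interaction, the genotype effect in 3D minus that in 2D, called 5 of the 10 genes, beside 27.2% of all genes, 11.1% positive and 16.1% negative. Herpud1 (log2 -0.73 ± 0.16, adjusted p = 0.0051) and Dnajb9 (-0.61 ± 0.16, adjusted p = 0.0117) had a lower genotype effect in 3D than in 2D. Sdf2l1 (0.94 ± 0.19, adjusted p = 0.00291), Pdia4 (0.49 ± 0.13, adjusted p = 0.0142) and Creld2 (0.37 ± 0.13, adjusted p = 0.0453) had a higher one. For Sdf2l1 the sign turned over, with a fall in 2D Cxcl5-/- and a rise in libraries labelled 3D Cxcl5-/-. Hspa5 (-0.23 ± 0.14, adjusted p = 0.249) and Xbp1 (-0.38 ± 0.14, adjusted p = 0.0595) did not pass, so a difference between the cultures in their genotype effect was not shown. The Sdf2l1, Herpud1 and Dnajb9 calls were kept when any of the 12 samples was left out, while Pdia4 was lost without 2D WT replicate 2, 2D Cxcl5-/- replicate 2 or 3D WT replicate 3, and Creld2 in 10 of 12 cases. With library totals Dnajb9 was not called (-0.23, adjusted p = 0.389).

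Between libraries labelled 3D Cxcl5-/- and 2D Cxcl5-/-, Dnajb9 was higher in 3D (log2 1.15, 2.23-fold, adjusted p = 1.36e-06), as were Sdf2l1 (0.88, 1.83-fold, adjusted p = 9.65e-05) and Pdia4 (0.43, adjusted p = 0.00145), while Pdia6 (-0.45, adjusted p = 0.00433) and Calr (-0.36, adjusted p = 0.0186) were lower. In this comparison 57% of all genes passed, 28.7% higher and 28.2% lower, and the groups did not overlap for 3 of the 10 genes in each direction, beside 33.6% and 31.2% of all genes. The Calr call was lost with DESeq2 size factors, library totals, no filter or a minimum of 10 counts in every sample, and without 2D Cxcl5-/- replicate 1 (adjusted p = 0.0778) or 3D Cxcl5-/- replicate 2 (0.119).

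In the overexpression experiment the question of genotype could be asked in separate libraries. All 10 genes were lower in Cxcl5-/- than in WT samples, and no Cxcl5-/- sample reached any WT sample for any of them. Of all 28730 genes tested 41.9% passed, 24.3% lower and 17.6% higher, while 49.1% had all Cxcl5-/- samples below all WT samples and 31.8% the reverse. The median log2 fold change was -1.0483 over the 10 genes and -0.2957 over all genes, or -0.0145 over the genes with at least 10 counts in every sample. Hspa5 was at 3079 and 2928 CPM in WT and at 865.6 and 824.7 in Cxcl5-/-, a 3.55-fold lower level (log2 -1.83 ± 0.12, adjusted p = 1.1e-06) and the largest change of the 10. Hsp90b1 was at 1473 and 1399 CPM in WT and at 781 and 686.1 in Cxcl5-/-, 1.96-fold lower (adjusted p = 7.65e-05).

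The cofactors and isomerases were lower too. Creld2 went from 93.9 and 92.61 CPM in WT to 40.34 and 35.27 in Cxcl5-/-, 2.47-fold lower (log2 -1.30 ± 0.12, adjusted p = 8.15e-06). Pdia6 went from 466.7 and 434.5 CPM to 197.7 and 199.4, 2.27-fold lower (adjusted p = 7.49e-06). Dnajb9 went from 65.9 and 60.48 CPM to 29.05 and 27.98, 2.22-fold lower (adjusted p = 1.41e-05). For each of the 3 genes the spread within a group was small beside the gap between groups. Sdf2l1 was at 54.82 and 61.81 CPM in WT and 26.23 and 27.17 in Cxcl5-/- (log2 -1.13 ± 0.10, adjusted p = 4.95e-06), and Pdia4 at 378.6 and 393.2 against 250.1 and 251.6 (log2 -0.62 ± 0.09, adjusted p = 0.000331). These 2 genes had the opposite direction in the culture experiment, where libraries labelled 3D Cxcl5-/- were above 3D WT. The difference between the experiments was not tested, since the tables were normalized separately. Herpud1 (1.61-fold lower, adjusted p = 0.00038) and Xbp1 (1.5-fold lower, adjusted p = 0.000957) were called lower in both experiments. Calr changed least (log2 -0.44 ± 0.11, adjusted p = 0.00716), a call lost without Cxcl5-/- replicate 1 (-0.40). The 10 directions were the same with DESeq2 size factors, library totals and the DESeq2 Wald test.

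Other properties of these libraries moved with the genotype. Between 43037 and 43048 genes had a count in WT samples and between 26886 and 26948 in Cxcl5-/- samples. Of 5 epithelial markers tested 3 were lower in Cxcl5-/-, with sums of 823 to 865 CPM in WT and 258 to 272 in Cxcl5-/-, and the 4 fibroblast markers were all higher, with sums of 71.8 to 75.8 and 447 to 453.5 CPM. Epcam and Cdh1 stayed under 1 CPM in each sample. The part of these differences in the ER gene results was not tested. The labels of these samples name cell lines that run on in number from sample to sample, whereas the study names Panc02.

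**Figure D2:**
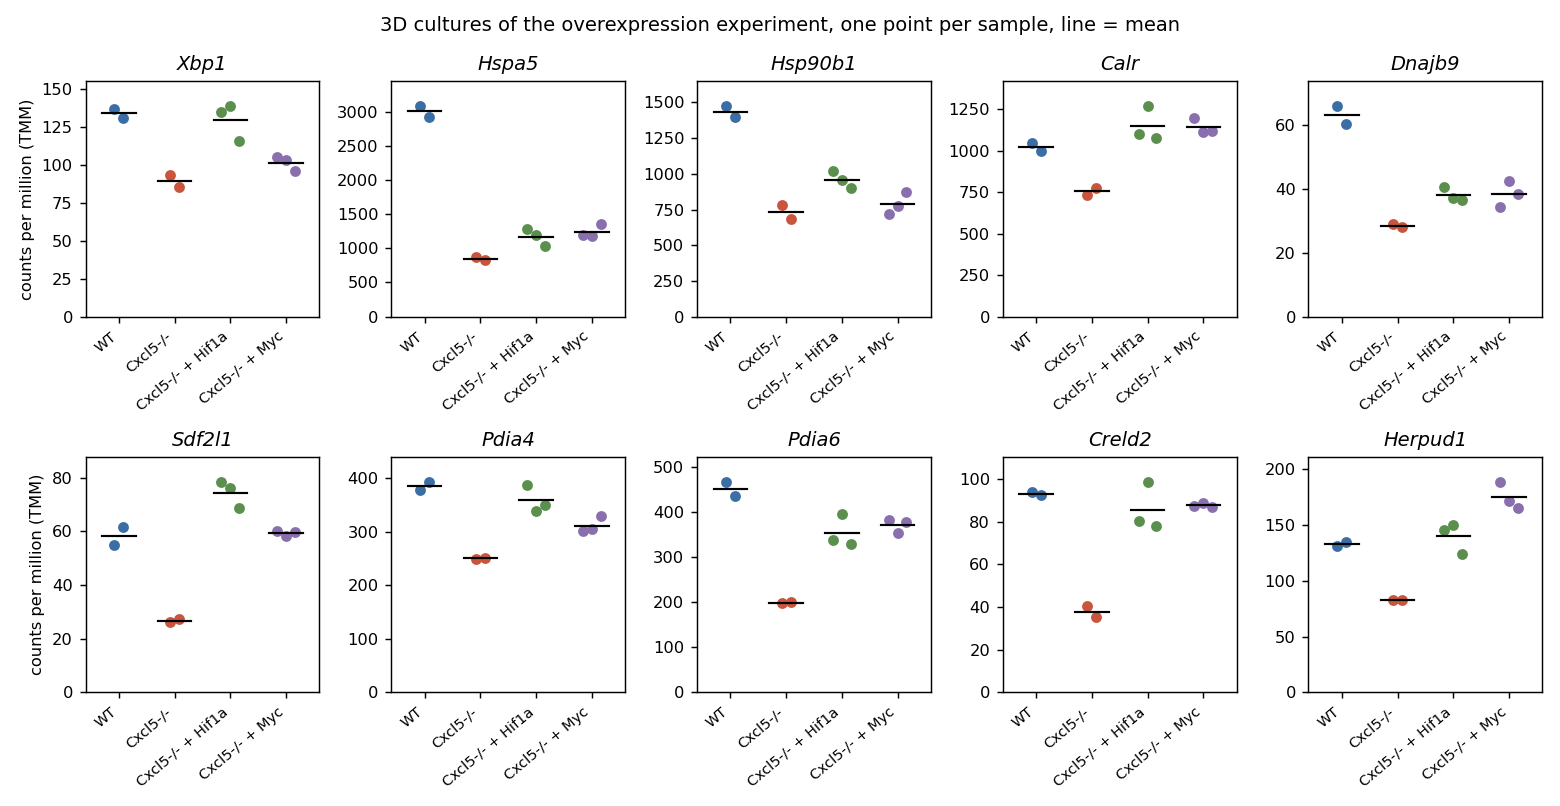
Level of each of the 10 genes in CPM (y axis, linear from 0, TMM scaled) in 3D cultures of WT (n = 2), Cxcl5-/- (n = 2), Hif1aOE Cxcl5-/- (n = 3) and MycOE Cxcl5-/- (n = 3), 1 point per sample with a line at the mean. Cxcl5-/- lies below WT in each panel, while Hspa5 remains under 1400 CPM with either overexpression, far from the 2928 to 3079 CPM of WT.

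**Figure D3:**
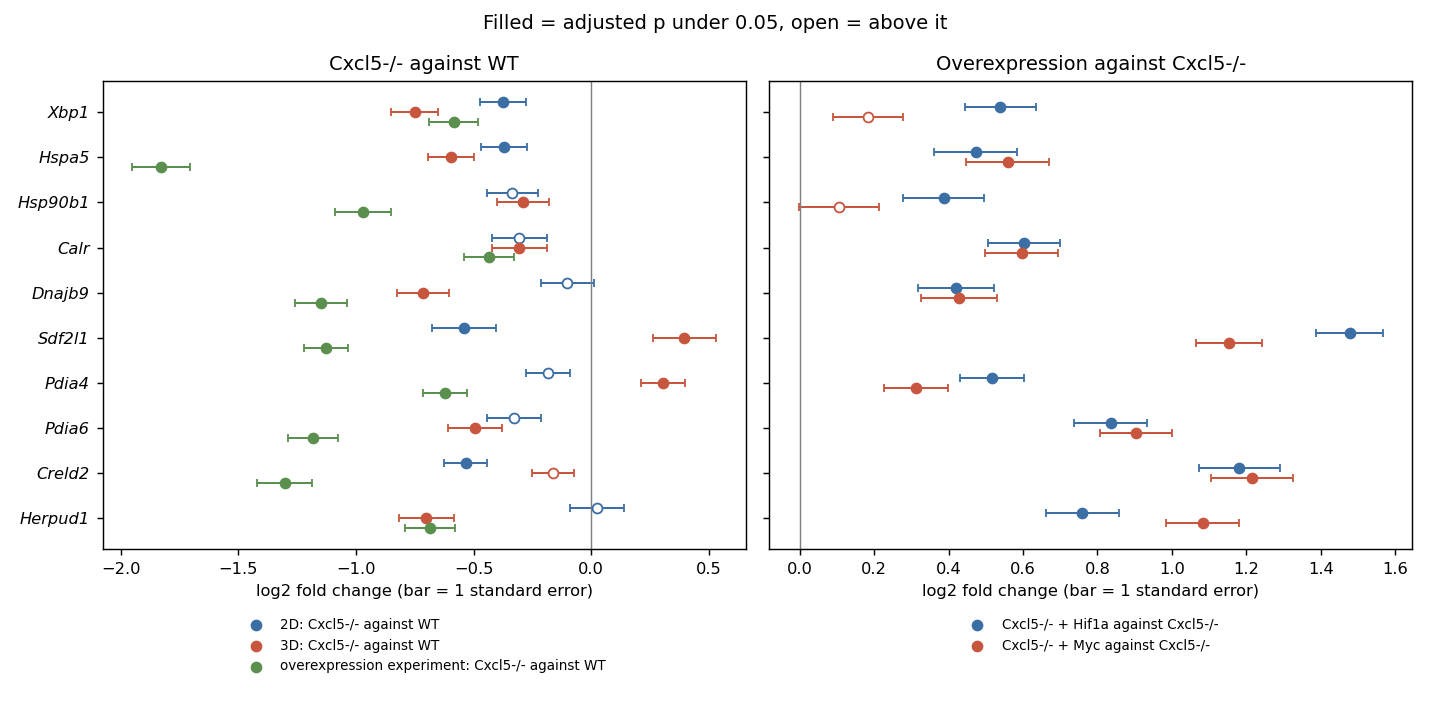
Log2 fold change (x axis, bar of 1 SE from edgeR) of each of the 10 genes, on the left for Cxcl5-/- against WT in 2D, in 3D (libraries so labelled) and in the overexpression experiment, and on the right for either overexpression against Cxcl5-/-, with filled points at an adjusted p under 0.05. All 10 points of the overexpression experiment on the left lie below 0, Sdf2l1 and Pdia4 lie above 0 in 3D, and with library totals Hsp90b1 and Calr in 3D and Hsp90b1, Xbp1 and Pdia4 with Myc would cross 0.

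Cxcl5-/- cells given a vector for stabilised Hif1a or for Myc were then compared with Cxcl5-/- cells. Both comparisons below use the same 2 Cxcl5-/- samples as control, so their values are given side by side and not compared as independent results. The comparison of Cxcl5-/- with WT above rests on these 2 samples as well. Lower values there and higher values here are therefore not independent. With stabilised Hif1a, all 10 genes were higher than in Cxcl5-/-, beside 35.5% of all genes that passed, 20.5% higher and 15% lower, with a median of 0.5710 over the 10 and 0.1574 over all genes. With Myc, 8 of the 10 were higher, beside 39.6% of all genes that passed, 21.6% higher and 18% lower, with a median of 0.5777 over the 10 and 0.1056 over all genes. Xbp1 and Hsp90b1 were the 2 genes that did not pass with Myc. All samples lay above Cxcl5-/- for 10 genes with Hif1a, beside 30.5% of all genes (26.2% below), and for 9 genes with Myc, beside 29.7% (28.8% below).

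Sdf2l1 was at 78.45, 76.02 and 68.66 CPM with Hif1a and at 60.04, 58.39 and 59.64 with Myc, against 26.23 and 27.17 in Cxcl5-/-. No sample of either line came near the Cxcl5-/- values. The change was 2.79-fold with Hif1a (log2 1.48 ± 0.09, adjusted p = 6.55e-07) and 2.22-fold with Myc (1.15 ± 0.09, adjusted p = 2.03e-06). Creld2 was at 80.59, 98.68 and 77.88 CPM with Hif1a and at 87.24, 89.03 and 87.1 with Myc, 2.27-fold (adjusted p = 1.03e-05) and 2.32-fold (adjusted p = 5.9e-06) above Cxcl5-/-. The WT level was 92.61 to 93.9 CPM, and against WT neither line passed the test. Herpud1 was at 145.9, 149.9 and 124.2 CPM with Hif1a and at 188.6, 171.5 and 165.3 with Myc, against 82.98 and 82.41 in Cxcl5-/-. All Myc samples lay above all other groups, and the change was 2.12-fold with Myc (log2 1.08 ± 0.10, adjusted p = 6.39e-06) and 1.69-fold with Hif1a (0.76 ± 0.10, adjusted p = 0.000101). Pdia6 was at 329.6 to 396.2 CPM with Hif1a and 354.1 to 382.3 with Myc (log2 0.84, adjusted p = 4.9e-05, and 0.90, adjusted p = 2.14e-05). Calr was at 1076 to 1269 CPM with Hif1a and 1116 to 1197 with Myc (log2 0.60 in both, adjusted p = 0.000522 and 0.000472).

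Hspa5 and Hsp90b1 stayed well below WT in both lines. Hspa5 was at 1279, 1198 and 1041 CPM with Hif1a and at 1190, 1184 and 1361 with Myc, above Cxcl5-/- (865.6 and 824.7) in each sample and far below WT in each. The log2 fold changes were 0.47 ± 0.11 (adjusted p = 0.00602) and 0.56 ± 0.11 (adjusted p = 0.00186). Hsp90b1 was at 1021, 953.4 and 903.5 CPM with Hif1a (log2 0.39 ± 0.11, adjusted p = 0.0162) and at 718.2, 773.1 and 876.1 with Myc, where the values overlapped those of Cxcl5-/- (0.11 ± 0.11, adjusted p = 0.464). Dnajb9 was at 36.46 to 40.73 and 34.28 to 42.43 CPM (log2 0.42, adjusted p = 0.00736, and 0.43, adjusted p = 0.0058). Xbp1 was at 135, 138.8 and 116.1 CPM with Hif1a (log2 0.54, adjusted p = 0.000904) and at 105.4, 103.1 and 96.18 with Myc (0.18, adjusted p = 0.145). Pdia4 gave 0.52 (adjusted p = 0.000642) and 0.31 (adjusted p = 0.0127). The calls of Hspa5, Hsp90b1 and Dnajb9 with Hif1a and of Dnajb9 and Pdia4 with Myc were lost without Cxcl5-/- replicate 2 (adjusted p of 0.0678, 0.179 and 0.0652 with Hif1a), Hsp90b1 also without Hif1aOE Cxcl5-/- replicate 1, and Pdia4 with Myc also without Cxcl5-/- replicate 1. With library totals 6 genes were called with Hif1a and 5 with Myc, and with Myc Pdia4 (-0.02), Xbp1 (-0.16) and Hsp90b1 (-0.23) were negative and not called. Marker levels moved with these comparisons as well. With Hif1a, 4 of 5 epithelial markers were higher than in Cxcl5-/- (sums of 686.6 to 819.5 against 258.1 to 271.8 CPM) and all 4 fibroblast markers lower (131.1 to 170.5 against 447 to 453.5 CPM). With Myc, 2 of 5 epithelial markers were higher (244 to 287.3 CPM) and 2 of 4 fibroblast markers lower (310.2 to 340.2 CPM). Their part in the ER gene results was not tested.

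Compared directly, the 2 lines differed in 3 of the 10 genes, beside 19.3% of all genes, 9.54% higher and 9.73% lower with Myc. Herpud1 was higher with Myc than with Hif1a (log2 0.32 ± 0.09, adjusted p = 0.0207), a call lost without Hif1aOE Cxcl5-/- replicate 3 or MycOE Cxcl5-/- replicate 1 and with library totals. Sdf2l1 (-0.33 ± 0.08, adjusted p = 0.0109) and Xbp1 (-0.36 ± 0.08, adjusted p = 0.0112) were lower with Myc. Hsp90b1 (-0.28, adjusted p = 0.0652) and Pdia4 (-0.20, adjusted p = 0.0896) did not pass, and the DESeq2 Wald test called both. All Myc samples lay below all Hif1a samples for 4 of the 10 genes and above for 1, beside 16.3% and 15% of all genes.

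Against WT, 5 of the 10 genes differed with Hif1a and 7 with Myc, beside 24.2% of all genes (13.9% higher, 10.3% lower) and 31.8% (17.1% higher, 14.7% lower). The groups did not overlap for 2 genes on the higher and 4 on the lower side with Hif1a (25.4% and 35.8% of all genes), and for 2 and 7 with Myc (27.2% and 38.6%). Hspa5 was 2.56-fold below WT with Hif1a (log2 -1.36 ± 0.11, adjusted p = 1.62e-05) and 2.41-fold below with Myc (-1.27 ± 0.11, adjusted p = 9.79e-06), the largest differences of the 10 genes in either comparison. Dnajb9 was also lower in both (log2 -0.73, adjusted p = 0.000492, and -0.72, adjusted p = 0.000294), as was Hsp90b1 (-0.58, adjusted p = 0.00289, and -0.86, adjusted p = 0.000133). Xbp1 was lower with Myc (-0.40, adjusted p = 0.00743) and gave -0.05 with Hif1a. Pdia6 was lower in both (-0.35, adjusted p = 0.0227, and -0.28, adjusted p = 0.0438), a call that was lost with Myc whichever sample was left out and with Hif1a in 4 of 5 cases. Sdf2l1 was higher with Hif1a (0.35, adjusted p = 0.0135, lost without WT replicate 1) and Herpud1 higher with Myc (0.40, adjusted p = 0.00977, lost without either WT sample), and neither was called with library totals. The Sdf2l1 call was also lost with DESeq2 size factors, a minimum of 10 counts in every sample and the DESeq2 Wald test. Calr and Creld2 passed in neither comparison. Pdia4 was lower with Myc (-0.31, adjusted p = 0.0186), lost without either WT sample, and the Xbp1 call was lost without WT replicate 1.

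No gene of the 10 passed the test with either conditioned medium. With M1-CM against Ctrl, all 10 log2 fold changes were negative, with a median of -0.3157 beside 0.0150 over all genes, but none passed, and none had an unadjusted p under 0.05 in edgeR (DESeq2 called 0 as well). Of all 19207 genes tested, 0.0156% passed, all of them higher, and 0% were lower. Hspa5 was at 2000, 2232 and 2372 CPM in Ctrl, at 1900, 1989 and 2283 with M0-CM and at 1913, 905 and 1869 with M1-CM. M1-CM replicate 2, which had the lowest total count of the 9 samples (43875429), lay far below the others. Herpud1 was at 133.6, 138.9 and 204.3 CPM in Ctrl and at 120.8, 69.95 and 140.9 with M1-CM, and Calr at 1215, 1894 and 1474 in Ctrl and at 1479, 577.6 and 1288 with M1-CM. The same sample was the lowest of the 9 for each gene except Dnajb9. Without it the median log2 fold change was -0.0943, with all 10 still negative, so the size of the difference rests on that library.

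Dnajb9 was the exception in pattern, at 11.83, 11.82 and 13.4 CPM in Ctrl, 12.72, 12.69 and 16.59 with M0-CM and 8.853, 11.77 and 10.22 with M1-CM. All M1-CM values lay below all others, and the log2 fold change was -0.27 ± 0.18 against Ctrl and -0.45 ± 0.18 against M0-CM, neither of which passed. Against Ctrl, 2 of the 10 genes had all M1-CM samples below all control samples, beside 4.03% of all genes, and none had them above, beside 4.46%. Between M1-CM and M0-CM the median was -0.3489, 0 genes were called and 1 had an unadjusted p under 0.05 (DESeq2 called 0), and without M1-CM replicate 2 the median was -0.1068 with 9 genes negative. In that comparison 0.0156% of all genes passed, and 2 of the 10 genes had all M1-CM samples below all M0-CM samples and none above, beside 4.03% and 3.84% of all genes. M0-CM against Ctrl gave 5 positive and 5 negative values with a median of 0.0057, 0 calls by edgeR and DESeq2 and 0 unadjusted p under 0.05, beside 0% of all genes called. None of the 10 genes had groups that did not overlap, beside 5.24% of all genes on the higher and 3.11% on the lower side.

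**Figure D4:**
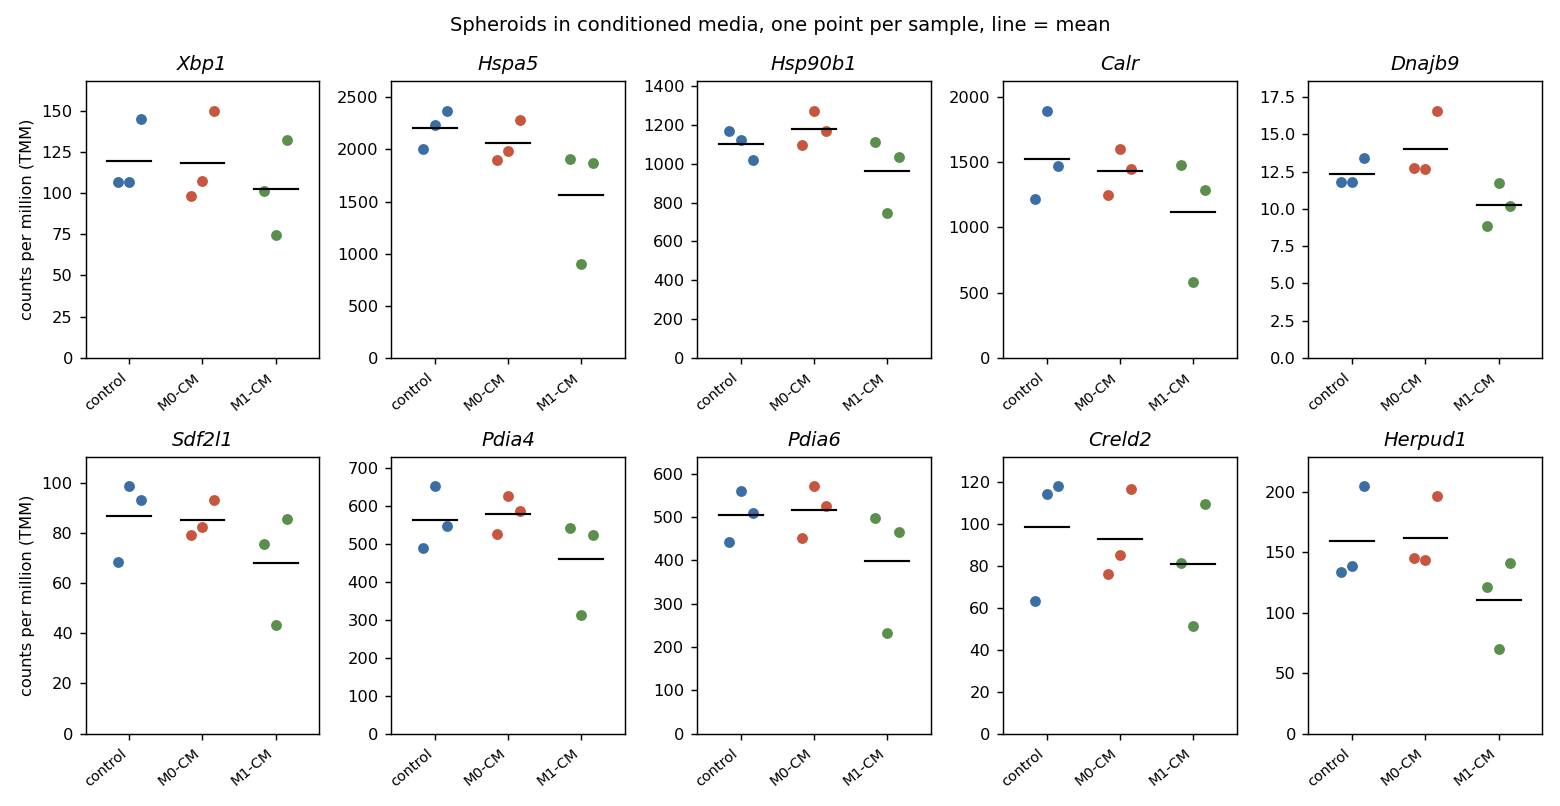
Level of each of the 10 genes in CPM (y axis, linear from 0, TMM scaled) by the medium given to the spheroids, control, M0-CM or M1-CM (x axis), 1 point per sample (n = 3 per group) with a line at the mean. The low M1-CM point in 9 panels is the same sample, replicate 2, at 905 CPM for Hspa5 against 1869 to 2372 in the other M1-CM and all Ctrl samples.

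Across samples the 10 genes moved together to a different extent in each experiment. The median Pearson r of log2 CPM over the 45 pairs of genes was 0.789 across the 9 conditioned medium samples (0.069 to 0.988), which share the low sample, and 0.749 across the 10 overexpression samples (0.136 to 0.969). Across the 12 samples of 2D and 3D culture it was 0.345, from -0.502 between Dnajb9 and Calr to 0.925, with 30 of 45 pairs positive. Pdia4 and Pdia6, isomerases of one family, had an r of -0.420 there. Within a table the samples share scaling and group structure, so these values are descriptions.

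The wider ER stress machinery was described with 6 further lists of genes. The list for the branch downstream of PERK held Atf4, Ddit3, Trib3, Atf3, Ppp1r15a and Chac1. Counts of these genes do not show whether PERK acted on them, which was not tested. Of the 6 genes, 5 were higher in 3D than in 2D WT cells. All 6 were below 3D WT in the libraries labelled 3D Cxcl5-/-, and below WT in Cxcl5-/- of the overexpression experiment. Over all genes 22.2% were higher and 22% lower in 3D WT. In libraries labelled 3D Cxcl5-/- 25.3% were lower and 19.7% higher, and in Cxcl5-/- of the overexpression experiment 24.3% were lower and 17.6% higher. These shares are the background for the list counts of these 3 comparisons that follow. The list medians were 1.9593, -1.3379 and -2.6599. With Hif1a all 6 and with Myc 5 of 6 were above Cxcl5-/- (medians 1.2202 and 1.2726), beside 20.5% and 21.6% of all genes. In both lines 5 of 6 were below WT, beside 10.3% of all genes with Hif1a and 14.7% with Myc. Leaving out any sample kept these counts, except that the one for Hif1a against WT ran from 5 to 6. Ddit3, which encodes the transcription factor CHOP, was at 10.01 to 11.83 CPM in 2D WT, 26.14 to 38.02 in 3D WT and 15 to 20.26 in libraries labelled 3D Cxcl5-/-. It rose in 3D by a log2 fold change of 1.47 (adjusted p = 2.94e-06).

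Atf4, the transcription factor whose translation PERK favours, was at 377.4 to 400.5 CPM in 3D WT and 125.6 to 179.6 in libraries labelled 3D Cxcl5-/- (log2 -1.37 ± 0.11, adjusted p = 4.87e-07), while 3D and 2D WT did not differ by the test (-0.09). In the overexpression experiment it was at 429.5 to 448 CPM in WT, 119 to 122 in Cxcl5-/-, 219.6 to 275.9 with Hif1a and 290.6 to 327.9 with Myc. Atf3, a stress-induced transcription factor, gave the largest values, with a log2 fold change of 4.22 ± 0.22 in 3D WT against 2D WT and -4.12 ± 0.22 in libraries labelled 3D Cxcl5-/- against 3D WT. Chac1 and Trib3, targets of ATF4 and CHOP, gave log2 fold changes of -3.38 and -3.27 in Cxcl5-/- of the overexpression experiment. In 2D culture the list went differently, with Chac1 (0.83, adjusted p = 0.000331) and Trib3 (0.77, adjusted p = 0.0118, lost without 2D Cxcl5-/- replicate 2) higher in Cxcl5-/-, beside 3.86% of all genes. All 6 genes passed the interaction test, each with the lower effect in 3D (median -1.7315). Of all genes 27.2% passed that test, 16.1% in this direction.

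The sensors were mixed. Of 8 tested genes for sensors and their processing, 3 were higher and 2 lower in 3D WT, and in libraries labelled 3D Cxcl5-/- 1 was higher and 2 lower, with a median of -0.0049. With library totals the latter counts were 6 and 0. Without any single 3D WT sample or Cxcl5-/- replicate 1 they were 2 and 1, and without Cxcl5-/- replicate 3 the lower count was 1. In 3D WT the lower count was 1 without replicate 3 of either culture. Atf6 was higher in 3D WT (0.59, adjusted p = 1.35e-05) and lower in libraries labelled 3D Cxcl5-/- (-0.58, adjusted p = 2.01e-05, not called with library totals) and in 2D Cxcl5-/- (-0.57, adjusted p = 0.000175). Ern1 was higher in 3D WT (0.74, adjusted p = 0.000223) and lower in libraries labelled 3D Cxcl5-/- (-0.33, adjusted p = 0.0383), a call lost under 9 of 14 alternatives and with the sign turned with library totals. Eif2ak3, the PERK gene, gave 0.07 and 0.09 in these comparisons and did not pass. With Myc, 7 of 9 genes of this list were lower than in Cxcl5-/- (4 when Cxcl5-/- replicate 1 or replicate 2 was left out), beside 18% of all genes, among them Atf6 (-0.85, adjusted p = 2.33e-06) and Ern1 (-0.78, adjusted p = 9.51e-05).

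Other ER chaperones were mixed, with 2 higher and 5 lower of 14 in 3D WT, and 1 higher and 5 lower of 15 in Cxcl5-/- of the overexpression experiment. With any sample left out, the calls of the latter were 0 higher and 1 to 3 lower. Library totals left 1 lower there and 1 higher in 3D WT, where leaving out 3D WT replicate 2 also left 1 higher. Manf, a secreted ER protein induced by stress, came closest to the 10 genes, at 200.9 and 201.2 CPM in WT, 83.75 and 84.48 in Cxcl5-/- (log2 -1.26 ± 0.13, adjusted p = 1.86e-05), 205.9 to 275.5 with Hif1a (1.49, adjusted p = 4.01e-06) and 180.9 to 204.1 with Myc (1.17, adjusted p = 1.38e-05). Hyou1, the ER Hsp110, was lower in Cxcl5-/- there (-0.35, adjusted p = 0.0201), a call lost under 4 of 12 alternatives, and Canx, the membrane partner of calreticulin, likewise (-0.38, adjusted p = 0.0124, lost under 3 of 12). Dnajc3, a cochaperone of BiP that inhibits PERK, gave -0.26 (called, and lost under 7 of 12). In libraries labelled 3D Cxcl5-/-, Hyou1 gave -0.11 and Dnajc3 0.16, neither called.

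Among the oxidoreductases and prolyl isomerases, 5 were higher and 2 lower of 14 in 3D WT, 3 higher and 6 lower in libraries labelled 3D Cxcl5-/-, and 3 higher and 6 lower in Cxcl5-/- of the overexpression experiment. With library totals the lower count was 5 in 3D WT, and libraries labelled 3D Cxcl5-/- had 7 higher and 2 lower. Ero1a, which reoxidises disulfide isomerases, was at 87.23 to 96.24 CPM in 2D WT, 2359 to 2740 in 3D WT and 623.8 to 717.2 in libraries labelled 3D Cxcl5-/-. Its log2 fold change was 4.79 ± 0.11 in 3D WT (adjusted p = 6.44e-12) and -1.95 ± 0.10 in libraries labelled 3D Cxcl5-/- (adjusted p = 5.15e-09), larger than that of any of the 10 genes. P4hb, the founding disulfide isomerase, was at 918.1 to 1053 CPM in 2D WT, 1981 to 2503 in 3D WT and 1181 to 1335 in libraries labelled 3D Cxcl5-/-. Pdia3, the isomerase that works with calreticulin, went the other way in each of these comparisons, lower in 3D WT (-0.52) and higher in libraries labelled 3D Cxcl5-/- (0.67) and in Cxcl5-/- of the overexpression experiment (0.47).

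Genes of ER-associated degradation went both ways, with 6 higher and 6 lower of 21 in 3D WT, 6 and 4 in libraries labelled 3D Cxcl5-/- (15 and 1 with library totals), and 8 and 7 in Cxcl5-/- of the overexpression experiment. In 3D WT library totals gave 3 higher and 10 lower. Leaving out 1 sample gave 3 to 6 higher and 2 to 5 lower in libraries labelled 3D Cxcl5-/-, with 3 higher without 3D WT replicate 1 or 2 and 2 lower without 3D WT replicate 1 or Cxcl5-/- replicate 2 or 3. In the overexpression experiment the lower count was 4 without WT replicate 2 or Cxcl5-/- replicate 1. Sel1l, the adaptor of the ubiquitin ligase that Herpud1 assists, was higher in 3D WT (0.64, adjusted p = 2.2e-05), and Edem1, a lectin that hands over glycoproteins, was lower in Cxcl5-/- of the overexpression experiment (-0.50). Derl3 passed in none of the comparisons. The translocon and signal peptidase genes, which bring chains into the ER, were lower in 9 of 14 and higher in 1 in libraries labelled 3D Cxcl5-/- (4 and 3 with library totals) and lower in 9 and higher in 2 in Cxcl5-/- of the overexpression experiment (5 or 6 lower with any sample left out). With Hif1a 10 of the 14 were higher than in Cxcl5-/- and with Myc 9, beside 20.5% and 21.6% of all genes. Ssr2, of the translocon-associated complex, was at 111.3 to 124.1 CPM in 3D WT and 48.47 to 61.33 in libraries labelled 3D Cxcl5-/- (log2 -1.06 ± 0.10, adjusted p = 2.05e-06). Sec61b, a subunit of the translocon, was at 101.9 and 112.5 CPM in WT and 50.86 and 54.86 in Cxcl5-/- of the overexpression experiment, and at 176 to 259.2 with Hif1a. None of the 6 lists had a gene past the edgeR test in M1-CM against Ctrl, nor past the DESeq2 test. An unadjusted p under 0.05 was found there for 1 other chaperone, 2 degradation genes and 1 translocon gene.

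**Figure D5:**
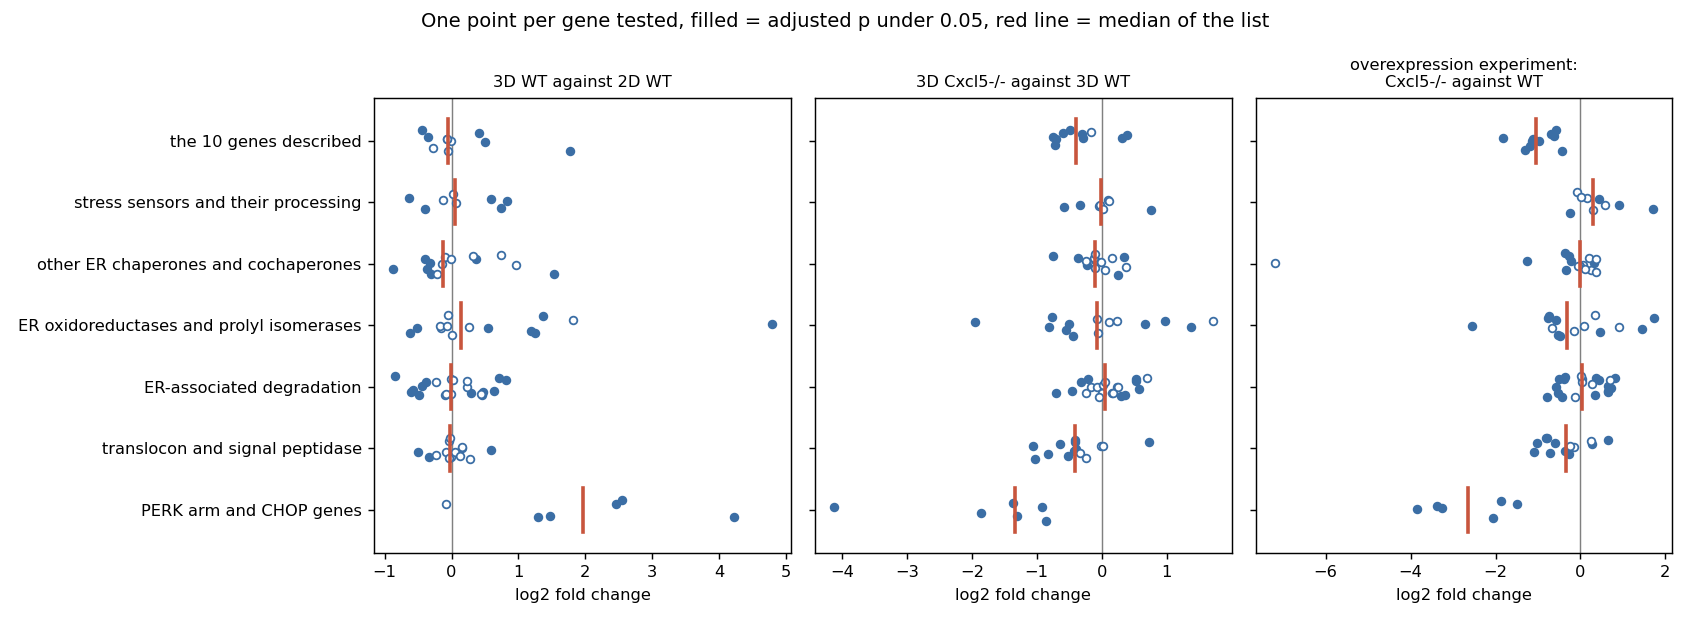
Log2 fold change (x axis) of each gene tested, by list (y axis), in 3D WT against 2D WT, libraries labelled 3D Cxcl5-/- against 3D WT, and Cxcl5-/- against WT of the overexpression experiment, with filled points at an adjusted p under 0.05 and a red line at each list's median. The list of PERK arm and CHOP genes has the medians farthest from 0, at 1.9593, -1.3379 and -2.6599. The other 5 wider lists have genes on both sides of 0 in each panel. Single genes of other lists can lie farther out, as Ero1a does in 3D WT against 2D WT. The open point far to the left is Clgn, not called, at most 19 counts in a sample, named after its value was seen.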

How the data were processed

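RNA sequencing of Panc02 cells was measured in 31 samples. The authors prepared TruSeq libraries of total RNA that keep strand, sequenced both ends for 101 bases, aligned them with HISAT2 to GRCm38 (mm10 per the submitters' processing notes) and deposited StringTie gene counts without normalization. The annotation release and the step from StringTie to counts are not given in the sources used here. Samples were grouped by the labelled condition, all columns of values were used (0 left out), and no 2 libraries were duplicates.

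Counts were fitted in each table with the quasi-likelihood test of edgeR 4.0.16 (R 4.3.3), with TMM scaling, filterByExpr by group, every group of a table fitted together, and p-values adjusted by Benjamini-Hochberg across the genes that passed the filter. A gene was called at an adjusted p under 0.05, two-sided. The SE is the log2 fold change divided by the square root of F. Total counts were 43875429 to 78498230, 46973008 to 72361685 and 41542533 to 64872036 per sample in the conditioned medium, culture and overexpression tables, and intervals rest on the spread between samples. Correlations used log2(CPM + 0.5). Exon lengths came from GENCODE M21 and promoters from RefSeq. Tables were handled in Python 3.11.15 with pandas 2.3.3, numpy 2.4.6 and matplotlib 3.10.9. The fits were tested on simulated data.

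The 10 genes, the wider lists and the markers were chosen with earlier results of these data known. The genes named were the 10, Cxcl5, Hif1a and Myc, up to 3 genes per list and comparison with the lowest adjusted p, 14 further genes fixed by name, and the 5 genes most like Hspa5 per table. As alternatives, TMM was replaced by library totals or by the size factors of DESeq2 1.42.0, edgeR by the Wald test of that package, and the filter by none or by a minimum of 10 counts per sample. Further fits used the compared groups alone, took the replicate number as a block, dropped single samples, summed entries that share a symbol or asked for a log2 fold change beyond 1. Recomputing the wider lists and leaving out M1-CM replicate 2 for the medians were added after seeing the data.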

Additional observations from a re-analysis of the deposited data

Results flagged for a closer look

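For 5 of the 10 genes the effect of the Cxcl5-/- genotype differed between 3D and 2D culture by edgeR's interaction test. Values are log2 fold changes of Cxcl5-/- against WT, and the 3D libraries are those in which Cxcl5 went against the label. For Sdf2l1 the effect was 0.40 in 3D and -0.54 in 2D, a difference of 0.94 (adjusted p = 0.00291). For Pdia4 it was 0.31 and -0.19, a difference of 0.49 (adjusted p = 0.0142). For Creld2 it was -0.16 and -0.53, a difference of 0.37 (adjusted p = 0.0453). For Herpud1 it was -0.70 in 3D and 0.03 in 2D, a difference of -0.73 (adjusted p = 0.0051). For Dnajb9 it was -0.71 and -0.10, a difference of -0.61 (adjusted p = 0.0117). Each of the 5 differences had all 3 samples per group in the fit, and 27.2% of all genes passed the same test. The Creld2 call was lost in most fits that left out a single sample, and with the replicate number as a block (edgeR adjusted p = 0.0527). The Pdia4 call was lost in some fits that left out a single sample, and the Dnajb9 call with library totals.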

How the results depend on the processing

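The log2 fold changes of the 10 genes were recomputed 1950 times over comparisons and alternatives, of which 1805 kept their side of the threshold with no called value reversed, 114 lost the call, 28 gained one and 3 reversed, all 3 with library totals (0.0928 for Hsp90b1 and 0.0715 for Calr in libraries labelled 3D Cxcl5-/- against 3D WT, and -0.0215 for Pdia4 with Myc against Cxcl5-/-). Of the 1805, 100 had the opposite sign with a call in neither fit. The causes were not tested.

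Counts of called genes that moved by over 1.5 times were these. With a log2 fold change limit of 1, 3D against 2D WT kept 1 of 3 higher and 0 of 2 lower, 3D Cxcl5-/- against WT 0 of 2 and 0 of 7, 2D Cxcl5-/- against WT 0 of 4 lower, 3D against 2D Cxcl5-/- 1 of 3 and 0 of 2, the interaction 0 of 3 and 0 of 2, Cxcl5-/- against WT of the overexpression experiment 5 of 10 lower, Hif1a 2 of 10 higher, Myc 3 of 8 higher, Myc against Hif1a 0 of 1 and 0 of 2, Hif1a against WT 0 of 1 and 1 of 4, and Myc against WT 0 of 1 and 1 of 6. With library totals, lower calls were 5 in 3D against 2D WT, 2 in 3D Cxcl5-/- against WT, 1 in 3D against 2D Cxcl5-/- and 1 in the interaction, and higher calls were 6 with Hif1a, 5 with Myc and 0 in Myc against Hif1a and in either line against WT. With DESeq2 size factors, 1 lower call was left in 3D against 2D WT and in 3D against 2D Cxcl5-/-, and 0 higher in Hif1a against WT. Without a filter, 2 lower calls were left in 2D, 1 in 3D against 2D Cxcl5-/- and 1 in the interaction. With at least 10 counts in every sample, 1 lower call was left in 3D against 2D Cxcl5-/- and 0 higher in Hif1a against WT. The DESeq2 Wald test gave 4 lower in Myc against Hif1a and 0 higher in Hif1a against WT.

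Leaving out 1 sample gave 1 to 2 lower calls in 3D against 2D WT, 0 to 2 higher in 3D Cxcl5-/- against WT, 1 to 2 lower in 2D, 1 to 4 lower in 3D against 2D Cxcl5-/-, 1 to 3 higher in the interaction, 0 to 1 higher in Myc against Hif1a, Hif1a against WT and Myc against WT, and 3 to 5 lower in Myc against WT. It gave 9 to 10 lower in Cxcl5-/- against WT of the overexpression experiment, 7 to 10 higher with Hif1a and 6 to 8 with Myc.

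The mean correlation of same-numbered deviations was 0.0369, 0.0247 and 0.00408 in the 3 tables, and not every pair was above 0.1. Replicate numbers were thus not taken as pairs. In the conditioned medium experiment these correlations ran from -0.236 to 0.359. There, Ctrl replicate 1 and M0-CM replicate 1 differed less (chi-square per gene 23.6) than any 2 samples of the same group (73.8 or more). Pairing by replicate number in that experiment was not settled. With the number as a replicate block, Xbp1 passed in the interaction (-0.38, adjusted p = 0.0275) and with Myc (0.24, adjusted p = 0.0458), Hsp90b1 passed in Myc against Hif1a (-0.28, adjusted p = 0.0412), and Creld2 in the interaction (0.37, adjusted p = 0.0527) and Pdia6 in Myc against WT (-0.26, adjusted p = 0.076) did not. It changed no other call.

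Library totals moved the share of higher among called genes from 50.2 to 34.7% in 3D against 2D WT, from 43.9 to 75.8% in 3D Cxcl5-/- against WT, from 40.9 to 77.1% in the interaction, from 57.8 to 43.6% with Hif1a, from 54.6 to 36.3% with Myc, from 49.5 to 36.1% in Myc against Hif1a, and against WT from 57.5 to 38.1% with Hif1a (40.5% with DESeq2 size factors) and from 53.7 to 28.5% with Myc (42.2%). With 2 or 3 samples a group, a change that did not pass is not shown to be absent.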

Other observations

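The genes whose log2 CPM followed Hspa5 most closely across the 12 samples of 2D and 3D culture, of 9331 genes with a mean of at least 10 CPM, were Dars (Pearson r 0.971), Tsnax (0.964), Sf3b1 (0.960), Vps4b (0.949) and Mitd1 (0.945). Across the 10 overexpression samples, of 9530 genes, they were Ggta1 (0.986), Vim (0.983), Rsbn1 (0.976), Lrrfip1 (0.971) and Cdsn (0.967). In the other experiment Vim kept an r of 0.909, Lrrfip1 0.858, Sf3b1 0.848 and Dars 0.823, whereas Ggta1 had 0.086 and Cdsn 0.025. These are descriptions over samples that share groups and scaling.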
